A study of Mus musculus with 9 samples.

Results

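The genes described here are 29 genes of cholesterol and fatty acid synthesis, of 56980 genes in the deposited table, found by their gene names. They fall into a sterol arm of 20 genes (Hmgcs1, Mvk, Pmvk, Mvd, Idi1, Fdps, Fdft1, Sqle, Lss, Cyp51, Tm7sf2, Msmo1, Nsdhl, Hsd17b7, Ebp, Sc5d, Dhcr7, Srebf2, Insig1 and Stard4) and a fatty acid arm of 9 genes (Srebf1, Fasn, Acaca, Acly, Scd1, Scd2, Elovl5, Elovl6 and Me1). Bulk libraries came from untreated wild type C57BL/6 mice described as female. The young group has 4 animals aged 3 months and the aged group 5 animals aged 20 months, each called a biological replicate. The labels give the tissue as bone marrow, while the extraction protocol names homogenised trabecular bone. Markers of red cell precursors, neutrophils and osteoblasts were detected in every library. The series asked which genes change in aging in relation to sensory innervation of bone, and the comparison here is between the ages.

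Cholesterol is built from acetyl-CoA through mevalonate, isoprenoids, squalene and lanosterol. Long-chain fatty acids are built from the same acetyl-CoA, which ATP citrate lyase (Acly) makes from citrate. Both routes are driven by the membrane-bound SREBP transcription factors: SREBP-2 (Srebf2) acts mainly on sterol genes and SREBP-1 (Srebf1) mainly on fatty acid genes. When sterols are plentiful the INSIG proteins (Insig1) hold the SREBPs in the endoplasmic reticulum, and the target genes are transcribed less. Dividing blood cell precursors use both products for new membrane, and marrow adipocytes make fatty acids for storage.

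Promoter letters are shown first, for the genes that carry the sterol element and for the fatty acid genes the results turn on. RefSeq windows on GRCm38.p6 matched 23 of the 29 genes, and Fdft1, Fdps, Scd1, Scd2, Sqle and Stard4 had no window in the set searched. That set left out a whole chromosome, and whether any of these genes lies on it was not checked. A missing window does not show a missing RefSeq entry. The shares over all genes leave that chromosome out too. Within the 250 bases before the start, on both strands, the CCAAT box (CCAAT, letters bound by NF-Y) was found in 16 of 16 matched sterol genes and in 4 of 7 matched fatty acid genes, against 37.49% of 27025 genes with a window. The letters TCACNCCA, a core of the sterol response element, were found in 3 sterol genes (Hmgcs1, Msmo1 and Srebf2) and 0 fatty acid genes, against 4.2% of all genes. The E-box CACGTG, which SREBP-1 can also bind, was found in 4 sterol genes and 1 fatty acid gene, against 6.86%. The GC box GGGCGG, letters bound by Sp1, was found in 15 sterol and 3 fatty acid genes, against 35.36%. A match is a description of letters and not of binding. Bases shortly after the start were found in an annotated transcript of the same gene for 25 of 29 windows. The Hmgcs1 window was among those where they were not, so this check did not bear out its start. Capitals mark TCACNCCA, CACGTG and CCAAT on either strand, and in Fasn 2 CCAAT matches on opposite strands overlap.
Hmgcs1, chr13:119690101-119690350, plus strand: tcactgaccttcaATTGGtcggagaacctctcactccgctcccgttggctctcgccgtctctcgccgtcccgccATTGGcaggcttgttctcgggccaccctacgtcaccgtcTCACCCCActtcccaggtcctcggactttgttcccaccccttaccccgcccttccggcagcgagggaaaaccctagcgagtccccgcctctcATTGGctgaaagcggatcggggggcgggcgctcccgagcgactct
Msmo1, chr8:64733579-64733828, minus strand: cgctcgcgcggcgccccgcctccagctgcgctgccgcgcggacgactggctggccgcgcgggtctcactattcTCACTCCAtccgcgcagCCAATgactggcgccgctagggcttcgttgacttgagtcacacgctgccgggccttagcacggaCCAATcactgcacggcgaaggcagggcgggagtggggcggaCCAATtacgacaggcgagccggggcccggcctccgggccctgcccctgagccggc
Srebf2, chr15:82147019-82147268, plus strand: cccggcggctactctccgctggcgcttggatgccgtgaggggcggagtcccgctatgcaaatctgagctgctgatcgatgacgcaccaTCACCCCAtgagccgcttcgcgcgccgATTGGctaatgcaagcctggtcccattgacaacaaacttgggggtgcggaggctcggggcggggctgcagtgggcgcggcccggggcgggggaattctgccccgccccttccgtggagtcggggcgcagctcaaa
Fasn, chr11:120824548-120824797, minus strand: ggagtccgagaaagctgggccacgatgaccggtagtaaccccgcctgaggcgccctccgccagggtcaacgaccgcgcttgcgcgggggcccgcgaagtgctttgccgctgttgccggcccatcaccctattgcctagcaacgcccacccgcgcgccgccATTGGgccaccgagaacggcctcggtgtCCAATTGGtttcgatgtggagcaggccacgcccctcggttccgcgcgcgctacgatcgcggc
Elovl5, chr9:77917115-77917364, plus strand: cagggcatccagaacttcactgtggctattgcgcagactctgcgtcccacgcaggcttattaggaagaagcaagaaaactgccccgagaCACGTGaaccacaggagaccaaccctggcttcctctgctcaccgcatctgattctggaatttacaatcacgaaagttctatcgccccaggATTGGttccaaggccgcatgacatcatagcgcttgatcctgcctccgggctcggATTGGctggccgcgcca

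Libraries held 19804883 to 23548594 estimated counts, and each of the 29 genes had at least 36 counts in every library and passed the filter on low counts. Young 4, aged 3 and aged 4 stood apart: their share of counts in ribosomal protein genes was 6.13% to 7.3%, and 3.17% to 3.43% elsewhere. Transcripts that mark sex went against the stated sex in 5 libraries. Xist had 7909 to 21724 counts in aged 1 to 4 and at most 9 in the other 5 libraries, whereas 4 Y-linked genes summed to 3098 to 4925 counts in young 1 to 4 and aged 5 and to at most 44 in aged 1 to 4. Age and these transcripts therefore cannot be told apart except through aged 5. Levels are given as CPM, counts scaled to a common library size, and a log2 fold change is aged over young. In bulk tissue, fewer cells of a type and less RNA per cell cannot be told apart.

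No gene of either arm passed the test of a difference between the ages over all 9 libraries. Of the 29 genes, 14 had a log2 fold change above 0 and 15 below, and 0 passed an adjusted p of 0.05 in edgeR's quasi-likelihood test, against 0.0% of all 16576 genes tested. At an unadjusted p under 0.05 the edgeR test counted 0 of the 29 genes and 8.79% of all genes. DESeq2 called 0 of the 29 and 2.17% of all genes, and limma-voom called 0 of the 29 and 0.0% of all genes. The median log2 fold change was -0.0013 over the sterol arm, -0.03 over the fatty acid arm and 0.03 over all tested genes. Single genes ranged from -0.44 (Sqle) to 0.35 (Elovl5), and the smallest edgeR adjusted p among them was 0.661.

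The precision of these differences varied from gene to gene. The 95% interval lay within a 2-fold change in either direction for 16 of the 20 sterol genes and 6 of the 9 fatty acid genes, and for 44.6% of all tested genes. The narrowest interval was that of Srebf1, from -0.44 to 0.26, and the widest that of Fasn, from -1.25 to 1.14. In a fit that also had a term for the 3 libraries that stood apart, called the set term here, the Fasn interval narrowed to -0.16 to 0.33, and 27 of the 29 intervals lay within 2-fold, against 64.1% of all tested genes. There 0 of the 29 genes passed the adjusted edgeR threshold, against 1.92% of all genes, and 1 gene (Elovl5) had an unadjusted p under 0.05, against 18.8% of all genes. Within the 6 libraries alone 0 of the 29 passed in edgeR, against 0.012% of all genes, and 2 (Ebp and Elovl5) had an unadjusted p under 0.05, against 24.0%. A fit with the replicate number as a block called 0 of the 29, against 0.0784% of all genes.

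**Figure D1:**
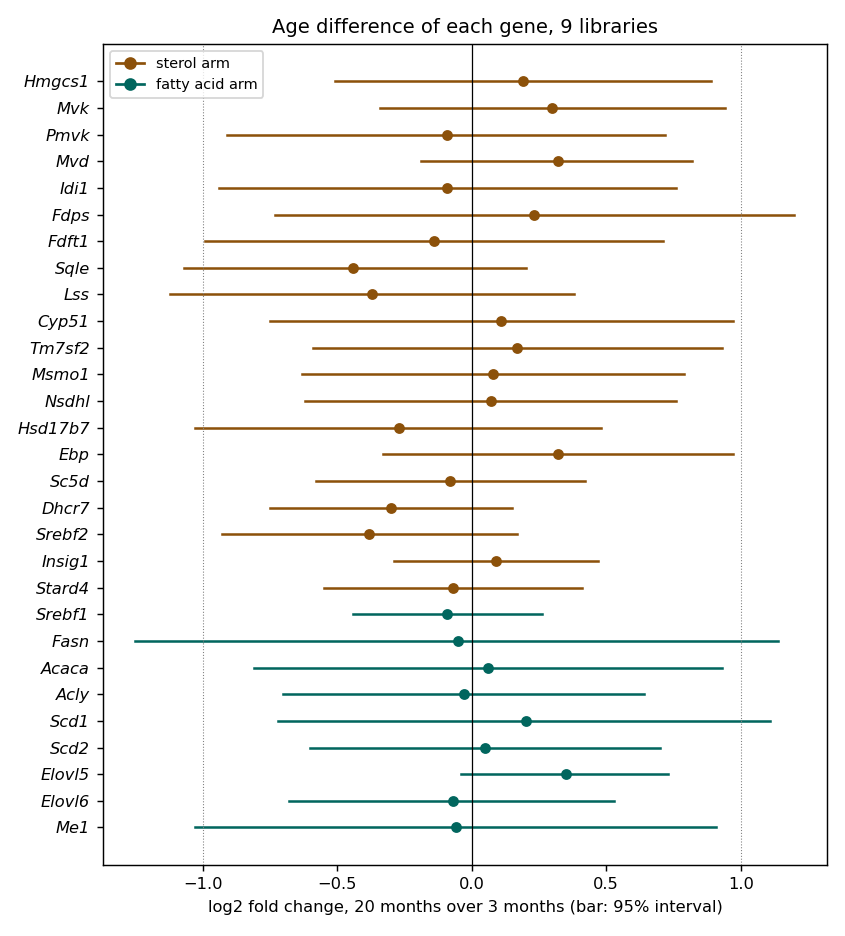
Log2 fold change of each gene, 20 months over 3 months (x axis), with its 95% interval from edgeR, one gene per line and coloured by arm; dotted lines mark a 2-fold change. Every interval includes 0, the narrowest is that of Srebf1 (-0.44 to 0.26) and the widest that of Fasn (-1.25 to 1.14).

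Among the 29 genes, Elovl5 alone had age groups that did not overlap. Elovl5, which elongates polyunsaturated fatty acids, was at 54.5, 54.4, 56.4 and 55.8 CPM in young 1 to 4 and 91.4, 61.2, 59.5, 75.7 and 63.4 CPM in aged 1 to 5. The young libraries lay in a narrow band and aged 1 stood highest. Of all tested genes, 1.67% had every aged library above every young one, so 1 of 29 is close to the background. The log2 fold change was 0.35 (SE 0.17, 95% interval -0.04 to 0.73), with an edgeR adjusted p of 0.661. It was 0.39 within the 6 libraries (edgeR adjusted p = 0.192), 0.35 with the set term (edgeR adjusted p = 0.217) and 0.23 without aged 1.

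Scd1 and Scd2 encode stearoyl-CoA desaturases, which make monounsaturated fatty acids. Scd1 was at 58.5, 76.2, 50.0 and 49.0 CPM in young 1 to 4 and 23.9, 111, 103, 54.2 and 42.7 CPM in aged 1 to 5. The aged values lay on both sides of the young range, with aged 1 the lowest and aged 2 and aged 3 the highest of all 9 libraries. The log2 fold change was 0.20 (SE 0.41, 95% interval -0.72 to 1.11, edgeR adjusted p = 1.0), and it turned to -0.07 without aged 2 and to -0.01 without aged 3. Scd2 was at 91.7, 79.6, 84.0 and 84.8 CPM in young 1 to 4 and 130.1, 115, 42.5, 80.8 and 72.3 CPM in aged 1 to 5. Aged 1 and aged 2 lay above every young library and aged 3 and aged 5 below, so that the group means were 85.0 ± 4.99 CPM (SD, n = 4) and 88.2 ± 35.0 CPM (SD, n = 5). Aged 1 had the highest Scd2 and the lowest Scd1 of all libraries.

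Fat cells make both desaturases, and adipocyte markers are given beside them. The 10 adipocyte markers summed to 238 to 513 CPM in young and 266 to 719 CPM in aged libraries, with 8 of 8 tested members above 0 in log2 fold change and Adrb3 at 0 in aged 3. The sum was 549, 511, 714, 719 and 266 CPM in aged 1 to 5. In every library Lpl and Fabp4 were the largest members of the sum. Its members were unlike. Lpl was at 327 CPM in aged 1 against 122 to 179 CPM in young libraries, while Adipoq was at 12.2 CPM there against 15.1 to 27.7 CPM. The part of these cells in the desaturase levels was not tested.

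Srebf1, the regulator of this arm, had overlapping groups. It was at 57.0, 54.5, 47.6 and 62.0 CPM in young 1 to 4 and 56.3, 52.3, 42.7, 55.6 and 53.2 CPM in aged 1 to 5. The means were 55.3 ± 6.0 CPM (SD, n = 4) and 52.0 ± 5.47 CPM (SD, n = 5), and the log2 fold change was -0.09 (SE 0.16, edgeR adjusted p = 1.0). Me1, the cytosolic malic enzyme that supplies NADPH, was lowest in aged 5 at 7.46 CPM and highest in aged 4 at 31.2 CPM, with young libraries at 11.0 to 26.5 CPM. Elovl6, which elongates saturated and monounsaturated chains, spanned 7.06 to 13.6 CPM in young and 6.65 to 14.1 CPM in aged libraries.

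**Figure D2:**
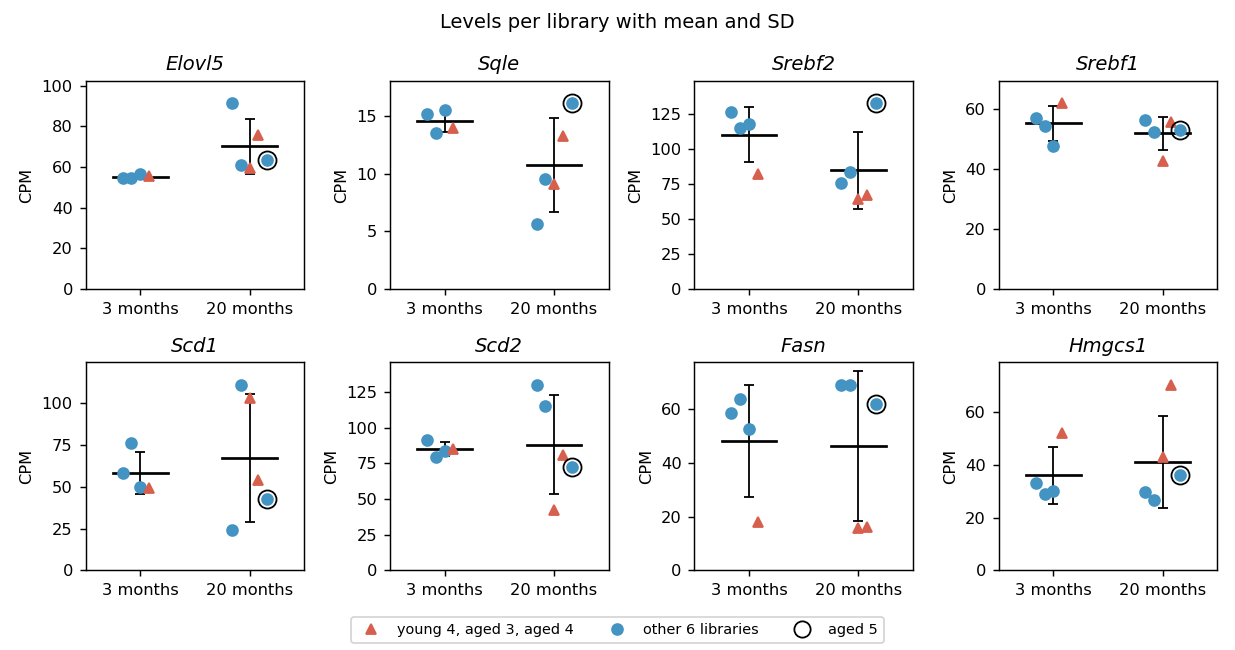
CPM per library (y axis, linear from 0) at 3 and 20 months for 8 genes, with the mean (line) and SD (bar) of each group; triangles are young 4, aged 3 and aged 4, circles the other 6 libraries, and the ring marks aged 5. Elovl5 is the gene whose groups do not overlap (54.4 to 56.4 against 59.5 to 91.4 CPM), while Fasn is low in the 3 triangles at both ages.

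In the sterol arm, the early steps from mevalonate to farnesyl diphosphate held no gene that passed the test. Hmgcs1 (HMG-CoA synthase) was at 36.0 ± 10.8 CPM (SD, n = 4) in young and 41.0 ± 17.5 CPM (SD, n = 5) in aged libraries. Mvk (mevalonate kinase) was at 6.63 ± 2.25 CPM (SD, n = 4) in young and 8.14 ± 2.12 CPM (SD, n = 5) in aged libraries. Mvd (mevalonate diphosphate decarboxylase) was at 8.75 ± 1.05 CPM (SD, n = 4) in young and 10.9 ± 2.81 CPM (SD, n = 5) in aged libraries, and within the 6 libraries its aged levels lay above all young ones, as did those of Ebp and Elovl5 (3 of 29, against 13.7% of all genes). These groups overlapped over all 9 libraries except for Elovl5. Fdps, which makes farnesyl diphosphate, was at 99.3 CPM in aged 4 against 24.0 to 36.2 CPM in the other 4 aged libraries. Idi1, the isomerase before it, was also highest in aged 4, at 64.5 CPM, with the other aged libraries at 17.8 to 29.3 CPM. The sum of the 5 early neutrophil markers was highest in that library too, at 7229 CPM against 2140.4 to 5224 CPM in the other 8. Among them Mpo was highest in aged 1 instead, at 2810.2 CPM against 1935 CPM in aged 4. The part of early neutrophils in the Fdps and Idi1 values was not tested.

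Squalene epoxidase (Sqle), an oxygen-dependent step that limits the rate toward sterols, had the lowest log2 fold change of the 29 genes. It was at 15.2, 13.5, 15.5 and 14.0 CPM in young 1 to 4 and 5.61, 9.52, 9.13, 13.3 and 16.1 CPM in aged 1 to 5. Aged 1 to 4 lay below every young library and aged 5 above all of them. The log2 fold change was -0.44 (SE 0.29, 95% interval -1.07 to 0.20, edgeR adjusted p = 0.83), and it was -0.27 without aged 1. Lss (lanosterol synthase), the next enzyme, was at 9.05, 7.64, 9.49 and 5.57 CPM in young 1 to 4 and 6.56, 8.36, 3.31, 3.84 and 8.63 CPM in aged 1 to 5. Its low values were those of aged 3, aged 4 and young 4, which crosses the ages, and its log2 fold change was -0.37 (95% interval -1.12 to 0.38, edgeR adjusted p = 0.965). It was -0.21 without aged 3, -0.24 without aged 4 and -0.14 within the 6 libraries. Further down the route, Cyp51 (lanosterol demethylase), Msmo1 (sterol C4-methyl oxidase), Sc5d (sterol C5-desaturase) and Dhcr7 (7-dehydrocholesterol reductase) had overlapping age groups. Fdft1, the squalene synthase before Sqle, was below all young levels in the aged libraries of the 6 (1 of 29, against 16.6% of all genes) and overlapped over all 9.

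The regulators of the sterol arm overlapped between the ages as well. Srebf2 was at 127, 115, 118 and 82.6 CPM in young 1 to 4 and 76.1, 83.5, 64.8, 67.1 and 133 CPM in aged 1 to 5. Aged 1 to 4 lay below young 1 to 3 and close to or below young 4, and aged 5 was the highest library of all. The log2 fold change was -0.38 (SE 0.25, 95% interval -0.93 to 0.17, edgeR adjusted p = 0.827), and it was -0.60 without aged 5. With the set term and aged 5 left out it was -0.48 with an edgeR adjusted p of 0.0481. This was the only one of the fits run in which any of the 29 genes passed, and there 4.36% of all genes passed. That fit was added after the data were seen. Without aged 5, age cannot be told apart from the Xist and Y-linked transcripts. With aged 5 in, the same fit gave -0.31 (edgeR adjusted p = 0.347). With the Y-linked term in place of the set term, the log2 fold change of Srebf2 was 0.27. Insig1, which retains the SREBPs, was at 22.9, 18.2, 21.6 and 17.4 CPM in young 1 to 4 and 24.2, 19.9, 18.7, 19.8 and 23.8 CPM in aged 1 to 5, and the ranges overlapped. Its log2 fold change was 0.09 (95% interval -0.29 to 0.47). Stard4, a cholesterol transfer protein, was at 36.2, 31.3, 37.1 and 33.8 CPM in young 1 to 4 and 23.7, 23.8, 41.8, 40.4 and 34.8 CPM in aged 1 to 5. Its aged libraries fell on both sides of the young range, and the log2 fold change was -0.07 (95% interval -0.55 to 0.41), and -0.34 within the 6 libraries.

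Per unit of transcript length the genes differed widely among themselves. On the deposited TPM scale (which also accounts for transcript length), Acly had the highest median over the 9 libraries, 47.5 TPM, followed by Fdps at 38.2, Ebp at 28.9, Srebf2 at 26.8 and Elovl5 at 25.3 TPM. Ranges over the libraries overlapped (10.4 to 78.0 TPM for Acly and 20.7 to 72.2 TPM for Fdps). Whether neighbours in this order kept it within single libraries was not compared. The lowest medians were those of Hsd17b7 (a sterol ketoreductase) at 2.02, Lss at 2.09 and Elovl6 at 2.35 TPM. The regulators Srebf2 and Srebf1 were at medians of 26.8 and 18.6 TPM, and Scd1 and Scd2 at 15.2 and 16.9 TPM.

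Differences between the 3 libraries that stood apart and the other 6 were larger than those between the ages for several genes. Fasn, the fatty acid synthase, was at 58.6, 63.9 and 52.6 CPM in young 1 to 3 and 17.9 CPM in young 4. It was at 69.2, 69.1 and 62.0 CPM in aged 1, 2 and 5 against 15.8 and 16.3 CPM in aged 3 and 4. That is 3.27-fold lower in young 4 and 4.17-fold lower in aged 3 and 4. Acaca (acetyl-CoA carboxylase, the committed step) was 2.66-fold lower in young 4 and 2.33-fold lower in aged 3 and 4, and Acly 1.61-fold and 1.84-fold lower. In the sterol arm Cyp51 differed the other way. It was at 13.1 to 16.4 CPM in young 1 to 3 and 28.0 CPM in young 4, and at 11.0 to 14.3 CPM in aged 1, 2 and 5 against 24.5 and 34.7 CPM in aged 3 and 4. Me1, of the fatty acid arm, was 1.85-fold higher in young 4 and 1.93-fold higher in aged 3 and 4. Its level in aged 3, 15.6 CPM, was below that in aged 2, 20.4 CPM. These genes were chosen for this contrast after their values were seen, and the sets were defined from these libraries. The values are therefore a description without a test.

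Counted over the arms, 6 of 20 sterol genes (Hmgcs1, Mvk, Pmvk, Fdft1, Cyp51 and Ebp) and 0 of 9 fatty acid genes were higher in all of young 4, aged 3 and aged 4 than in every other library, against 20.0% of all tested genes. In turn 4 of 9 fatty acid genes (Fasn, Acaca, Acly and Elovl6) and 1 of 20 sterol genes (Lss) were lower in all 3 than in the other 6, against 20.9%. The median log2 ratio of these libraries to the others of their age was 0.18 in young and 0.43 in aged libraries for sterol genes, and -0.32 and -0.60 for fatty acid genes. The difference of the age effect between the sets was fitted by edgeR's interaction term. Over the 29 genes its log2 values ran from -0.78 (Scd2) to 0.76 (Nsdhl). Young 4 is the only young library of its set and was assumed there to vary like the others.

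**Figure D3:**
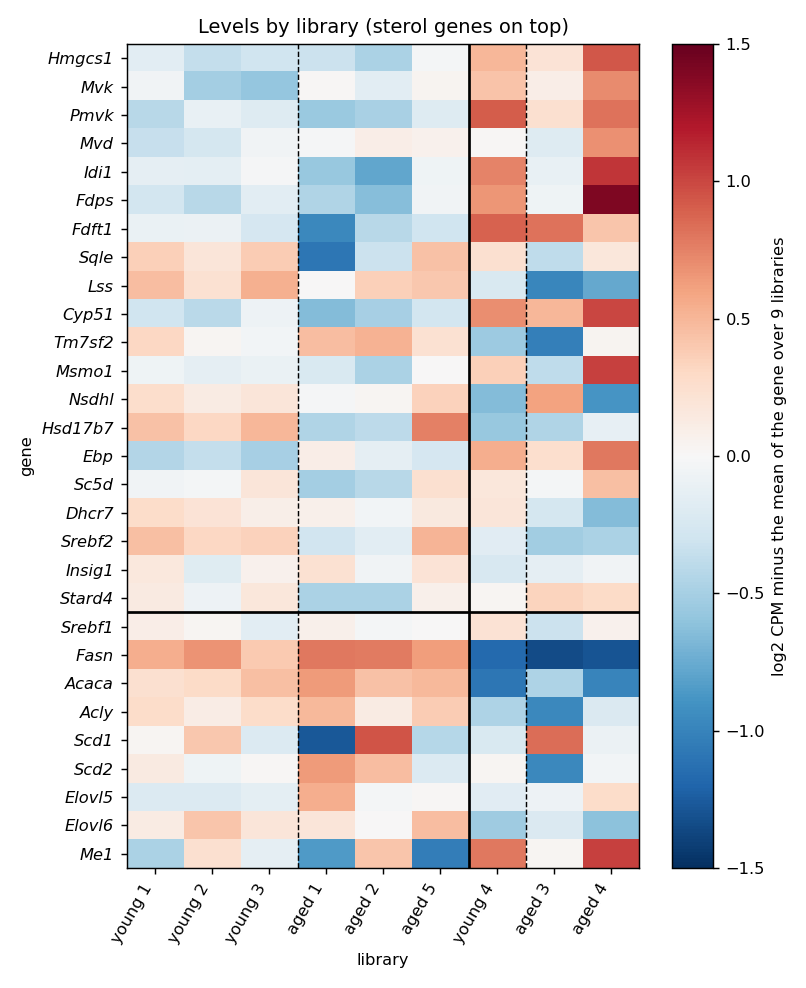
Log2 CPM of each gene (sterol genes above the horizontal line) in each library minus the gene's mean over the 9 libraries, red higher and blue lower, with the other 6 libraries left of the solid vertical line and young 4, aged 3 and aged 4 right of it; dashed lines separate the ages. Fasn, Acaca, Acly and Elovl6 are low on the right at both ages, and Hmgcs1, Cyp51 and Fdft1 are high there.

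Gene length moved with this split. Over all 16576 tested genes, the log2 ratio of young 4 to young 1 to 3 and that of aged 3 and 4 to the other aged libraries had Spearman correlations with length of -0.48 and -0.45. Across the 9 fatty acid genes they were -0.53 and -0.65, and across the 20 sterol genes -0.12 and 0.0. These describe genes that share the same libraries and are not independent replicates. Fasn and Acaca are the longest of the 29, at 10050 and 9513 bases in the deposited table. When all genes were put in 10 bins by length, the median log2 ratio was -0.68 in the longest bin (median length 7487 bases) and 0.91 in the shortest (738 bases). Of the 6 sterol genes higher in the 3 libraries, Pmvk (1194 bases), Mvk (1602) and Ebp (1743) are short, and the bins with median lengths of 1244.5 and 1664 bases had medians of 0.66 and 0.37. The other 3, Cyp51 (3931 bases), Hmgcs1 (3464) and Fdft1 (3048), are longer, and the bins with median lengths of 2903, 3439 and 4123.5 bases had medians of -0.08, -0.20 and -0.36. The sum of the late neutrophil markers also moved with the sets, at 32419 to 71353 CPM in the 3 libraries and 15014 to 29484 CPM in the other 6. Its members were unlike. S100a9 was at 16944, 12746 and 27287 CPM in young 4, aged 3 and aged 4 and at most 9381 CPM elsewhere. Mmp8 was at 524, 352 and 572 CPM there and at 343 to 712 CPM in the other 6. Levels of Cxcr2, Ngp and Ltf overlapped between the sets as well. The part of length or of these cells in the levels of the 29 genes was not tested.

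**Figure D4:**
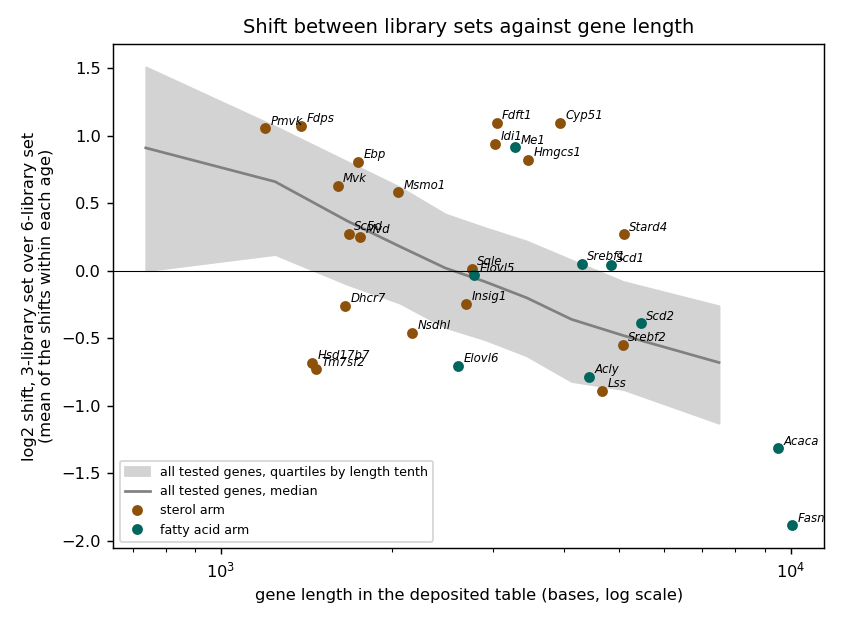
Log2 ratio of young 4, aged 3 and aged 4 to the other 6 libraries (y axis, mean of the ratios within each age) against gene length in bases (x axis, log scale), each of the 29 genes a point coloured by arm. The grey line and band are the median and quartiles of all tested genes in 10 bins of length. Fasn and Acaca are lowest at the longest lengths. Cyp51, Fdft1, Hmgcs1, Idi1 and the fatty acid gene Me1 are among those above the band.

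Within the other 6 libraries, the sterol arm differed among the aged libraries. In the mean of aged 1 and aged 2, 15 of the 20 sterol genes were below the mean of young 1 to 3 (against 48.8% of all tested genes), with a median log2 ratio of -0.25. In aged 5, 15 of the 20 sterol genes and 6 of the 9 fatty acid genes were above that mean, against 49.6% of all tested genes, with medians of 0.14 and 0.09. Aged 5 exceeded the mean of aged 1 and 2 in 18 of 20 sterol genes and in 2 of 9 fatty acid genes, against 50.1% of all tested genes. For 13 of the 20 sterol genes both aged 1 and aged 2 were below all of young 1 to 3 and aged 5, against 18.2% of all tested genes, and for 0 of the 9 fatty acid genes. In turn 2 sterol genes (Tm7sf2 and Ebp) and 2 fatty acid genes (Fasn and Scd2) were above all of these in both, against 16.5%. Hsd17b7 was at 8.86, 8.15 and 9.24 CPM in young 1 to 3, at 4.79 and 4.98 CPM in aged 1 and 2, and at 11.1 CPM in aged 5. This contrast was noticed in the values and is given without a test.

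Aged 1 and aged 2 also differ from aged 5 in the Xist and Y-linked transcripts above and in cell markers. The 10 erythroid markers summed to 1342 and 2982 CPM in aged 1 and 2, to 4106 CPM in aged 5 and to 6863 to 8146 CPM in young 1 to 3. The 10 cell division genes summed to 2469, 2426 and 3378 CPM in aged 1, 2 and 5 and to 4208 to 4447 CPM in young 1 to 3. Over all libraries, 10 of 10 genes of both lists had a log2 fold change below 0. The adipocyte sums were 549 and 511 CPM in aged 1 and 2, and 266 CPM in aged 5. In young 1 to 3 they were 238 to 314 CPM. Lpl and Fabp4 were the largest members of these sums. Fabp4 was at 175 and 139 CPM in aged 1 and 2, 117 CPM in aged 5 and 70.6 to 98.7 CPM in young 1 to 3. The members were unlike. Lpl was at 327 and 264 CPM in aged 1 and 2 and 98.8 CPM in aged 5, while Adipoq was at 12.2 and 23.6 CPM and 22.1 CPM. In young 1 to 3 Lpl was at 122 to 140.5 CPM and Adipoq at 15.1 to 27.7 CPM. The macrophage sums in aged 1 and 2, aged 5 and young 1 to 3 were 2390.5 and 1702, 976 and 927 to 1033 CPM. Of the 9 macrophage markers, 6 had a log2 fold change above 0 and 3 below. The part of these cells in the sterol levels was not tested. With Y-linked expression as a term, which leaves aged 5 to set the age difference, Sqle and Srebf2 had log2 fold changes of 0.15 and 0.27, and 0 of the 29 genes passed in edgeR's test, against 0.00603% of all genes. Of the further marker lists, summed levels in young and aged libraries were 1324 to 3479.6 and 574 to 1625 CPM for osteoblasts (8 of 8 below 0) and 264 to 330.3 and 35.4 to 463 CPM for B cell progenitors (8 of 8 below 0). They were 368 to 700.3 and 457 to 1589 CPM for plasma cells (7 of 7 above 0) and 75.7 to 139 and 99.6 to 192 CPM for T and NK cells (5 of 6 above 0).

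**Figure D5:**
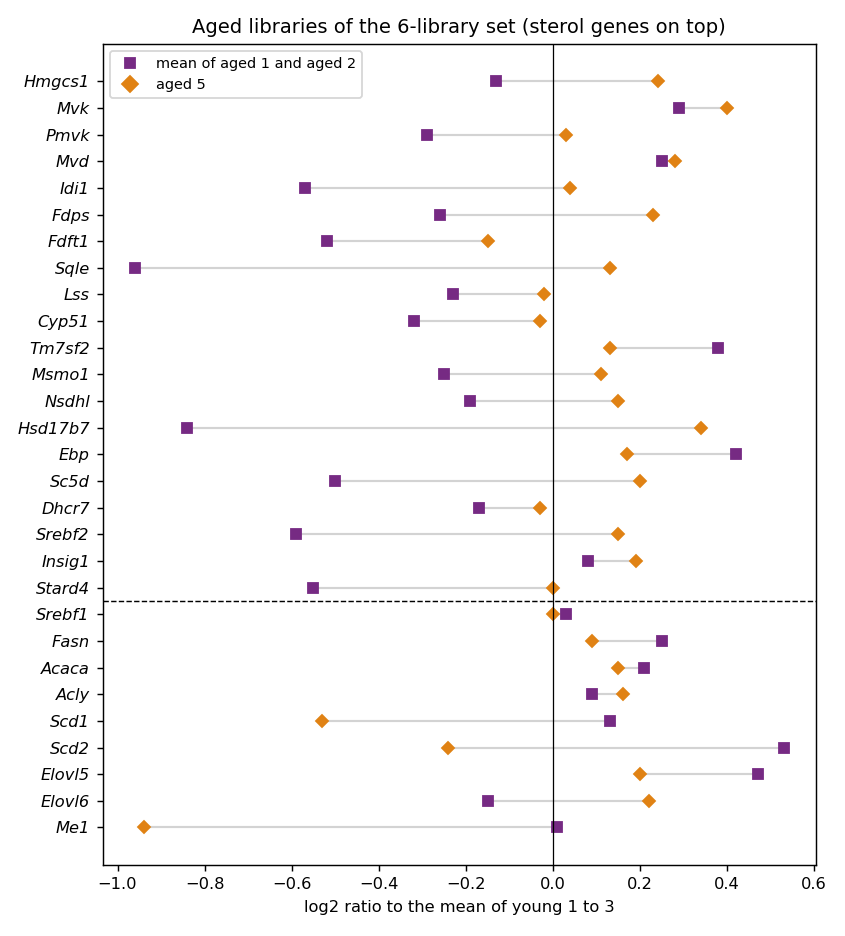
Log2 ratio to the mean of young 1 to 3 (x axis) for each gene (sterol genes above the dashed line), with squares for the mean of aged 1 and aged 2 and diamonds for aged 5. The diamond lies to the right of the square in 18 of 20 sterol genes and in 2 of 9 fatty acid genes.

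Other genes of the pathways gave 0 calls too. Of 19 tested genes around sterol synthesis (neighbouring synthesis steps, isoprenoid branches, SREBP processing, storage, transport and sensing), 10 were above 0 and 9 below, and 0 passed in edgeR, with 2 at an unadjusted p under 0.05, against 8.79% of all genes. Those were Nr1h3, the oxysterol receptor LXR-alpha, and Abcg1, a cholesterol exporter and LXR target. Abcg1 was at 34.0, 33.1, 30.7 and 33.1 CPM in young 1 to 4 and 276, 158, 39.9, 31.3 and 31.1 CPM in aged 1 to 5. The high values were those of aged 1 and 2, while aged 4 and 5 lay within the young range. Nr1h3 was at 85.2 and 46.2 CPM in aged 1 and 2 and at 11.0 to 21.6 CPM in all others. The edgeR adjusted p was 0.467 for Nr1h3 and 0.483 for Abcg1. The 9 macrophage markers summed to 2390.5 and 1702 CPM in aged 1 and 2 and to 927 to 1599 CPM in the other 7 libraries, with 6 of 9 above 0 in log2 fold change and 3 below. The sum hides unlike members: C1qb was at 558 and 327 CPM in aged 1 and 2 against 85.5 to 92.6 CPM in young 1 to 3, while Vcam1 was at 117 and 186 CPM against 262 to 309 CPM. Mrc1 and Cd163 were low in aged 1 and 2 like Vcam1. These markers were singled out after their values were seen, and the part of these cells in the Abcg1 and Nr1h3 values was not tested. Acat2, which makes acetoacetyl-CoA, had the next smallest p (edgeR adjusted p = 0.603), at 16.7 ± 2.89 CPM (SD, n = 4) in young and 12.2 ± 2.63 CPM (SD, n = 5) in aged libraries.

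Of 21 tested genes around fatty acid synthesis, 13 were above 0 and 8 below, 0 passed in edgeR, and 4 had an unadjusted p under 0.05, against 8.79% of all genes. Fads2, the delta-6 desaturase that acts on the same polyunsaturated chains as Elovl5, was at 31.1, 33.3, 33.6 and 26.1 CPM in young 1 to 4 and 9.62, 20.8, 15.9, 11.2 and 24.5 CPM in aged 1 to 5. Every aged library was below every young one, as for 2.76% of all tested genes and 0 of the 29. The log2 fold change of Fads2 was -0.92 (SE 0.28, edgeR adjusted p = 0.342), and the adjusted p of the fit with the set term was 0.0945. Fads3, of the same desaturase family, was at 20.0 ± 1.88 CPM (SD, n = 4) in young and 14.0 ± 2.77 CPM (SD, n = 5) in aged libraries (edgeR adjusted p = 0.455). Hsd17b12, the ketoreductase of the elongation cycle, differed the other way, at 30.5, 33.8, 32.4 and 25.1 CPM in young 1 to 4 and 53.7, 40.7, 37.3, 57.3 and 40.6 CPM in aged 1 to 5. Its aged libraries were all above the young ones, as for 1.67% of all tested genes, and its log2 fold change was 0.59 (SE 0.19, edgeR adjusted p = 0.374), with 0.0863 as the adjusted p once the set term was in. In all, 5 of the 21 had groups that did not overlap: Hsd17b12 and Oxsm were higher in every aged library, and Fads2, Fads3 and Acss2 lower. In the sterol list 3 of 19 (Cyp27a1, Ggps1 and Mylip) were lower in every aged library and 0 higher.

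The authors' deposited table marks 0 of the 29 genes as significant, and 256 of its 56980 genes (0.449%). In the authors' deposited table the log2 fold changes of the 29 run from -0.43 to 0.35, and the smallest adjusted p among them is 0.63.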

How the data were processed

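A single deposited table of 56980 genes covered the 4 young and 5 aged libraries. The submitters' processing notes list Bowtie 0.12.2 and mm8 without saying what for. The quantifier and annotation are not given in the sources used here. Per the file headers, the authors deposited estimated counts per gene, which are not whole; these expected counts were rounded for testing. The deposited TPM values served to compare levels between genes. The authors' deposited log2 fold changes, fold ratios and p-values are named for DESeq2 in the deposit, with settings not given.

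The members and lists were chosen with earlier results of these data known. The test was edgeR 4.0.16's quasi-likelihood F test (R 4.3.3), two-sided, with age group only, TMM scaling, filterByExpr (minimum count 10, total 15) and Benjamini-Hochberg adjustment over 16576 genes at 0.05. P-values measure the spread between these libraries. The closest pair in a group (young 1 and 3) had a chi-square per gene of 15.3, and no libraries were treated as duplicates. Alternatives were RLE and total scaling, no filter, DESeq2 1.42.0, limma-voom (limma 3.58.1), a replicate block, set and Y-linked terms, 6 libraries, each library left out, and, added after the data were seen, the set term with each library left out. Library values were to be given for genes of the 29 with an unadjusted p under 0.05, groups that do not overlap or a call with the set term, for the 3 per arm with the largest fold change, for Srebf1, Srebf2, Insig1 and Stard4, and for the 3 genes of each further list with the smallest p. Library values of other genes were chosen after they were seen. Ratios over all genes used a pseudocount of 0.5 CPM. The fits were tried on simulated counts with the same dispersion for every gene and no split between library sets. That trial does not show how they behave on these libraries. Figures were drawn with Python 3.11.15 and matplotlib 3.10.9.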

Additional observations from a re-analysis of the deposited data

Results flagged for a closer look

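In 11 of 58 groups examined (29 genes at 2 ages), 1 library stood far from the rest by Dixon's ratio, the gap to the nearest library over the whole range of the group on the log2 CPM scale. By chance about 1 in 20 groups would, but over all tested genes the same rule picked out 15.7% of the groups, and 74.1% of those for young 4. Such gaps are therefore not particular to these genes. Young 4 was the library in 8 of the 11. It was highest of the young libraries for Idi1 (ratio 0.8484), Fdft1 (0.8654), Msmo1 (0.8765) and Ebp (0.8611). It was lowest for Nsdhl (0.8517), Hsd17b7 (0.8292), Fasn (0.8469) and Acaca (0.8646). In the aged group, aged 4 was highest for Fdps (0.7105), aged 5 highest for Hsd17b7 (0.727) and aged 3 lowest for Srebf1 (0.7313). Hsd17b7 is in both lists, at 4.41 CPM in young 4 and 11.1 CPM in aged 5. Msmo1 and Nsdhl, which act in turn on the C4 methyl groups of sterols, were on opposite sides in young 4, at 28.4 CPM (the highest of the young libraries) and 8.01 CPM (the lowest).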

How the results depend on the processing

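None of the 29 genes was called under RLE or total scaling, without a filter, in DESeq2 or limma-voom, with the replicate block, set or Y-linked terms, in the 6 libraries, or with any library left out of the age-only fit (0 to 0). With the set term and a library left out, 0 to 1 were called, the 1 being Srebf2 without aged 5. Without aged 5, age cannot be told apart from the Xist and Y-linked transcripts. Calls over all genes, 0 in the age-only fit, were 360 in DESeq2, 319 with the set term, 13 with the replicate block, 2 in the 6 libraries, 1 with the Y-linked term and 0 to 6 with a library left out (6 without aged 5). With the set term and a library left out they ran from 0 to 1633 (1633 without aged 3, 712 without aged 5, 2 without young 4 and 1 without aged 2). Over these alternatives the median of the sterol arm lay between -0.21 and 0.10 and that of the fatty acid arm between -0.12 and 0.20. With the Y-linked term 15 of 29 genes changed sign, among them Sqle (0.15), Lss (0.12), Srebf2 (0.27), Stard4 (0.01) and Scd1 (-0.45). Scd1 was at -0.0025 in limma-voom and -0.04 in the 6 libraries, where Srebf1 was at 0.03. With a library left out, Stard4 ran from -0.17 to 0.03 and Scd1 from -0.07 to 0.41. With the set term as well, Srebf1 ran from -0.15 to 0.02 and Scd1 from -0.36 to 0.45 (-0.36 without aged 2, -0.06 without young 4 and -0.01 without aged 3). The cause was not tested. For the replicate block, deviations of same-numbered libraries correlated at 0.46, 0.55, -0.39 and 0.74. Young 4 and aged 4 are both among the 3 libraries that stood apart, while aged 3 is and young 3 is not. These correlations therefore cannot show whether the numbers pair the samples. Only libraries 2 and 4 correlated best with their own number. Each of the 29 genes had at least 36 counts in every library.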
